A study of Mus musculus with 6 samples.

Results

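The genes described here encode 9 collagen chains and 1 cross-linking enzyme in muscle stem cells (MuSCs), the cells that rebuild skeletal muscle: Col1a1, Col1a2, Col3a1, Col5a1, Col5a2, Col5a3, Col6a1, Col6a2, Col6a3 and Lox. These 10 of the 22706 genes of the table were chosen by symbol, with their values in these libraries already known, so their differences between groups are a description and not a test. All 10 had a mean value of at least 5 over the 6 libraries and entered the fit with 15915 genes. RNA-seq was done on freshly isolated MuSCs of 3 mouse groups with 2 libraries each. The control group was wild type. The mdx group carried the mdx mutation of the dystrophin gene Dmd, a model of Duchenne muscular dystrophy. The Sirt6mKO/mdx group carried the same mutation and floxed exons 4 to 6 of Sirt6, a histone deacetylase gene, removed by a Cre driven from the Pax7 promoter, which acts in the whole muscle lineage and so also in the myofibres around the MuSCs. All groups are labelled C57BL/6, while by the study's methods the mdx allele came from a C57BL/10ScSn stock. The study's legends for these data differ in age, from 8 to 16 weeks, without giving the age of single libraries. Limb and trunk muscles were digested with dispase and collagenase, depleted of cells with Sca1, CD45 or CD31, and sorted for Integrin-a7 and CD34 or for a fluorescent reporter. The study's methods call the RNA-seq replicates biological. The labels do not name separate animals, and whether a library held 1 mouse or a pool is not given in the sources used here. P-values rest only on the spread between these libraries, of the gene itself and of genes at like levels.

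Fibrillar collagens are the rope-like proteins of connective tissue. Each molecule winds 3 chains into a triple helix, which works only because glycine, the smallest amino acid, opens each Gly-X-Y repeat of 3 residues. Type I collagen joins chains of Col1a1 and Col1a2, type III is made of Col3a1 chains alone, and type V, made from Col5a1, Col5a2 and Col5a3 chains, starts fibrils and limits their width. Type VI collagen joins chains of Col6a1, Col6a2 and Col6a3 into beaded microfilaments next to the basement membrane of muscle. Lox encodes lysyl oxidase, the secreted enzyme that starts the cross-links between fibrillar chains. Collagens surround the niche of MuSCs, and defects of type VI collagen cause muscular dystrophies.

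The repeat is visible in the coding exons, which are shown because it is what the 9 chains share and Lox lacks. Each line gives the first exon of at most 63 bases that lies wholly inside the longest repeat and starts on a glycine codon, 5′ to 3′ on the coding strand, from the principal GENCODE transcript (GRCm38). Capitals mark the glycine codons.
Col1a1: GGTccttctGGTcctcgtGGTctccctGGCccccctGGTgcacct
Col1a2: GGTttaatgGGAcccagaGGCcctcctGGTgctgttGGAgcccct
Col3a1: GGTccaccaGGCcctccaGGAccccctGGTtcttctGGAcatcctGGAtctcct
Col5a2: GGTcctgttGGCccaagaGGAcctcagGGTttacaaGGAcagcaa
Col6a1: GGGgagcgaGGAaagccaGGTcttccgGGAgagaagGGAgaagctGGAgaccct
Col6a2: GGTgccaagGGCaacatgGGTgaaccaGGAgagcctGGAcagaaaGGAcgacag
Col6a3: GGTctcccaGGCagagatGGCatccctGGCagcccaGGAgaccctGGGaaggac
They lie at chr11:94939697-94939741 for Col1a1 (exon 7, plus strand), chr6:4515210-4515254 for Col1a2 (exon 7, plus strand), chr1:45325360-45325413 for Col3a1 (exon 6, plus strand), chr1:45423682-45423726 for Col5a2 (exon 9, minus strand), chr10:76719623-76719676 for Col6a1 (exon 9, minus strand), chr10:76611948-76612001 for Col6a2 (exon 6, minus strand) and chr1:90791924-90791977 for Col6a3 (exon 20, minus strand). The exons of Col1a1, Col1a2 and Col5a2 hold 45 bases and 5 Gly-X-Y triplets each, and those of Col3a1 and the 3 type VI chains hold 54 bases and 6 triplets. At equal length Col1a1 and Col1a2 shared 25 of 45 bases (55.6%), and Col6a1 and Col6a2 shared 26 of 54 (48.1%). Col3a1 and Col6a1, of different collagen types, shared 28 of 54 (51.9%). The exons were picked by position and the glycine codons match by choice, so these values do not measure how alike partner chains are. The longest unbroken run of triplets was 338 in Col1a1, 339 in Col1a2, 344 in Col3a1, 338 in Col5a1, 339 in Col5a2 and 337 in Col5a3. It was far shorter in the type VI chains, with 87 triplets in Col6a1, 87 in Col6a2 and 45 in Col6a3. Every exon inside the longest run had a length divisible by 9 bases in all 9 chains, for example 42 of 42 exons in Col1a2, of which 23 were 54 bases long. In Col6a1 and Col6a2 the most frequent of the lengths counted was 63 bases, with 6 exons each. In Lox no glycine codon had another 3 codons further on, so its longest run was 1.

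The labels were compared with the values before the collagens. Sirt6 had values of 41 and 32 in the control libraries, 33 and 40 in those of mdx and 37 and 30 in the Sirt6mKO/mdx-labelled libraries. A value per gene cannot show the loss of exons 4 to 6, so the deletion could not be checked, and the third group is called by its label. Dmd had values of 2743 and 2573 in control, 2883 and 2627 in mdx, then 2038 and 2435 in the third group. Control and mdx overlapped, so the mdx mutation was not checked by these values either. Xist, expressed from the inactive X chromosome, had values of 16772 and 12950 in control and 7 to 34 in the other 4 libraries, and the Y-linked Ddx3y had 3 and 8 against 1024 to 1767. Sex-linked genes thus differed between control and both other groups although the study's legends name male mice, and sex and genotype cannot be told apart in comparisons with control. Fos, an immediate early gene, stood at 10775 and 14930 in control, 1654 and 1921 in mdx, then 8993 and 10412 in the Sirt6mKO/mdx-labelled libraries. Its part in the collagen values was not tested. Pax7, the defining MuSC transcription factor, was between 2167 and 3236 in every library. Approximate depth, from the size factors recovered from the values, ran from 4397632 to 9744261 reads per library.

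Values in this text are the deposited normalised read counts, which the authors scaled between libraries and rounded. The 10 genes held 0.450% and 0.718% of all values in control MuSCs, 0.880% and 0.973% in the mdx pair, then 0.322% and 0.449% in the Sirt6mKO/mdx-labelled libraries. On this scale the third group lay below mdx, and its higher share was nearly level with the lower control share. Their summed values were 29922 and 39972 in control, 56172 and 54585 in mdx, then 30994 and 39851 in the Sirt6mKO/mdx-labelled libraries. The mdx sums were above all others. Control and the third group overlapped in these sums and nearly met in the shares, so no order between them is read. Shares also depend on the most abundant genes. Of all values, the 10 highest genes held 21.74% and 11.75% in control and 22.73% and 22.92% in mdx. In the third group the 10 highest held 32.65% and 30.04%. In bulk RNA, fewer cells of a type and less RNA per cell cannot be told apart.

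**Figure D1:**
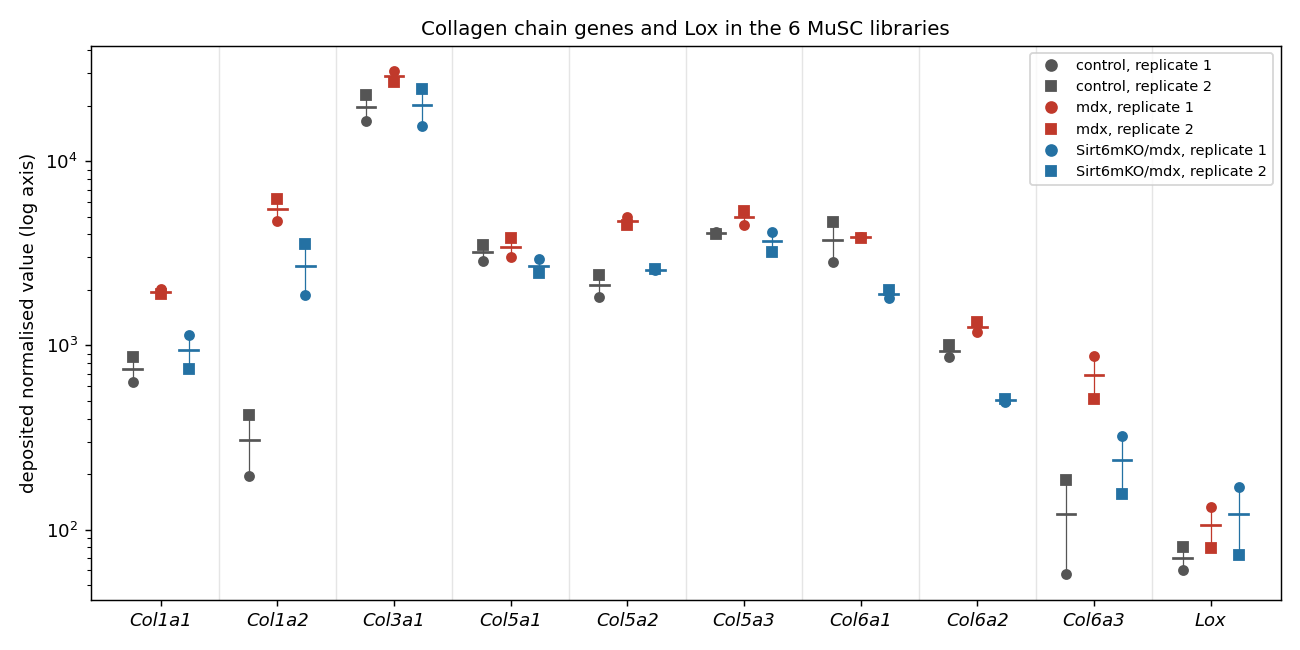
Deposited normalised value (log axis) of each collagen gene and Lox in the 6 libraries, with a short bar at the mean of each group. Col3a1 lies highest in every library, and Col1a2 goes from 196 and 416 in control to 4730 and 6265 in mdx.

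Col1a2, one of the type I chains, showed the widest distance between groups of the 10 genes. Col1a2 (ENSMUSG00000029661, chromosome 6, 4504814 to 4541543, plus strand) had values of 196 and 416 in control, 4730 and 6265 in mdx, then 1885 and 3535 in the Sirt6mKO/mdx-labelled libraries. The 3 groups did not overlap: control was lowest, mdx highest and the third group between them. The mean was 18.0 times that of control in mdx, then 8.86 times in the Sirt6mKO/mdx-labelled libraries. Col1a1 (ENSMUSG00000001506, chromosome 11, 94936224 to 94953042, plus strand), the partner chain, had values of 634 and 862 in control, 2013 and 1898 in mdx, then 1136 and 747 in the Sirt6mKO/mdx-labelled libraries. The mdx libraries lay above the rest, while the other groups overlapped. The mean in mdx was 2.61 times that of control, a smaller distance than that of its partner.

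Col3a1 (ENSMUSG00000026043, chromosome 1, 45311538 to 45349706, plus strand), the only chain of type III collagen, was the most abundant of the 10 genes in every library. Its values were 16458 and 22798 in control, 30817 and 26928 in mdx, then 15579 and 24533 in the Sirt6mKO/mdx-labelled libraries. By value it was gene 33 and 19 of all genes in control, 13 and 11 in mdx, then 65 and 45 in the third group. The mdx libraries were above the others without overlap, and the log2 fold change of mdx against control was 0.57 with an SE of 0.57. That SE comes from a fit that also uses the spread of genes at like levels. It is therefore not the spread of the Col3a1 libraries alone.

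Among the type V chains, Col5a2 stood apart from the others. Col5a2 (ENSMUSG00000026042, chromosome 1, 45374321 to 45503282, minus strand) had values of 1832 and 2398 in control, 4993 and 4514 in mdx, then 2549 and 2606 in the Sirt6mKO/mdx-labelled libraries. Its groups did not overlap, and the third group lay just above control. Col5a1 (ENSMUSG00000026837, chromosome 2, 27886425 to 28039514, plus strand) had values of 2867 and 3520 in control, 3019 and 3829 in mdx, then 2924 and 2474 in the third group. Control overlapped both other groups. Col5a3 (ENSMUSG00000004098, chromosome 9, 20770050 to 20815067, minus strand) had values of 4133 and 4039, 4528 and 5388, and 4134 and 3226 in the same order of groups. Its mdx values were above the rest by a margin smaller than the gap between its mdx libraries. Col5a1 and Col5a3 overlap noncoding genes of the opposite strand that are also in the table, and the use of strand in counting was not stated, so their values carry that uncertainty.

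Type VI chains fell into a pair and a single gene. Col6a1 (ENSMUSG00000001119, chromosome 10, 76708792 to 76726168, minus strand) had values of 2825 and 4671 in control, 3885 and 3837 in mdx, then 1800 and 1990 in the Sirt6mKO/mdx-labelled libraries. Col6a2 (ENSMUSG00000020241, chromosome 10, 76595762 to 76623630, minus strand) had 860 and 1002 in control, 1183 and 1336 in mdx, then 494 and 512 in the third group. For both genes the third group was the lowest and overlapped neither of the others, and its libraries were close to each other. Col6a3 (ENSMUSG00000048126, chromosome 1, 90765923 to 90843971, minus strand), which encodes the largest chain, had values of 57 and 186 in control, 871 and 511 in mdx, then 323 and 155 in the third group. Its mdx values were above all others, the third group overlapped control, and the replicates of a group differed more than for the other chains.

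Lox (ENSMUSG00000024529, chromosome 18, 52516069 to 52529867, minus strand) was low, with values of 60 and 80 in control, 133 and 79 in mdx, then 170 and 73 in the Sirt6mKO/mdx-labelled libraries. Every pair of groups overlapped. The approximate reads behind these values were 39 to 203 per library, against 130 to 8059 for Col1a2 and 10066 to 47053 for Col3a1.

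In mdx against control, 4 of the 10 genes were called higher and 0 lower, where called means an adjusted p of at most 0.05 over all 15915 genes and a log2 fold change of at least 1 in size. Over all genes tested 6.89% were called higher and 7.34% lower. The called genes were Col1a2, with a log2 fold change of 4.25 (SE 0.36), Col6a3 with 2.68 (SE 0.46), Col1a1 with 1.40 (SE 0.27) and Col5a2 with 1.18 (SE 0.28). Fold changes are on the scale of log2(value + 1), n is 2 libraries a group throughout, and nothing is read from the counts of the 10 genes beside the background, since the genes were chosen with these values known. The other 6 genes had log2 fold changes between 0.09 (Col6a1) and 0.57 (Col3a1). For 7 of the 10 genes both mdx libraries exceeded both control libraries, a pattern that 28.7% of all genes tested showed, and Col5a1, Col6a1 and Lox overlapped. The median log2 fold change of the 10 genes was 0.57, and that of all genes tested was 0.00. Without mdx replicate 1, the calls of Col5a2 and Col6a3 were lost and 2 remained, and without control replicate 1 Col5a2 was lost with a log2 fold change of 0.98. The log2 fold change of Col6a3 became 1.84 with control replicate 1 left out and 3.53 with control replicate 2 left out. Col1a2 was called under all 14 alternatives, with 3.71 to 4.79 when single libraries were left out.

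Compared with mdx, the Sirt6mKO/mdx-labelled libraries had 4 of the 10 genes called lower and 0 higher, where 2.54% of all genes tested were called lower and 5.62% higher. The called genes were Col6a3, with a log2 fold change of -1.57 (SE 0.46), Col6a2 with -1.32 (SE 0.24), Col1a1 with -1.08 (SE 0.27) and Col6a1 with -1.03 (SE 0.31). Col1a2, at -1.08 (SE 0.36), and Col5a2, at -0.88 (SE 0.28), were not called. For 9 of the 10 genes both libraries lay below both mdx libraries, as for 27.2% of all genes tested, and Lox overlapped with a log2 fold change of 0.12 (SE 0.43). The direction of Lox was not stable, at -0.48 with replicate 1 and 0.72 with replicate 2 left out of the Sirt6mKO/mdx-labelled libraries, and -0.25 with mdx replicate 2 left out. The median of the 10 genes was -0.95, and that of all genes tested was 0.02. These calls depended on single libraries. Leaving out a library leaves 1 in its group for every gene, and the share of all genes then called was not counted. Lost calls are thus not read as particular to these genes. Without any one of mdx replicate 2 or replicate 1 or 2 of the Sirt6mKO/mdx-labelled libraries, 0 of the 10 were called, and without mdx replicate 1 only Col6a2 was. The log2 fold change of Col6a3 became -2.10 with replicate 1 and -1.04 with replicate 2 left out of the Sirt6mKO/mdx-labelled libraries. With libraries scaled to equal sums, the median of all genes tested moved to -0.58, 7 of the 10 were called lower and Lox turned to -0.50. The share of all genes called lower with equal sums was not counted, and 2.54% does not stand for it.

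In the Sirt6mKO/mdx-labelled libraries against control, 1 of the 10 genes, Col1a2, was called higher with a log2 fold change of 3.17 (SE 0.36), and 0 were called lower. Of all genes tested 5.19% were called higher and 2.68% lower. Both libraries exceeded both control libraries for Col1a2 and Col5a2, 2 of 10 genes where the share of all genes tested was 26.3%. Both lay below for Col6a1, at -0.94 (SE 0.31), and Col6a2, at -0.88 (SE 0.24), 2 of 10 genes where the share was 25.3%, and neither was called. The other 6 genes overlapped, with log2 fold changes from -0.24 (Col5a1) to 1.11 (Col6a3). The value of Col6a3 became 0.27 with control replicate 1 left out, and 1.95 and called higher with control replicate 2 left out. Col6a1 became -1.30 and was called lower with control replicate 1 left out. With the same replicate left out, Col3a1 turned to -0.22, and with replicate 2 left out of the Sirt6mKO/mdx-labelled libraries it stood at -0.31. With equal sums Col1a1, Col3a1 and Col5a2 turned from above to below 0, to -0.29, -0.59 and -0.31, while the median of all genes tested moved from 0.01 to -0.58. Since the 3 comparisons share libraries, their values are set side by side and their agreement is not a result.

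**Figure D2:**
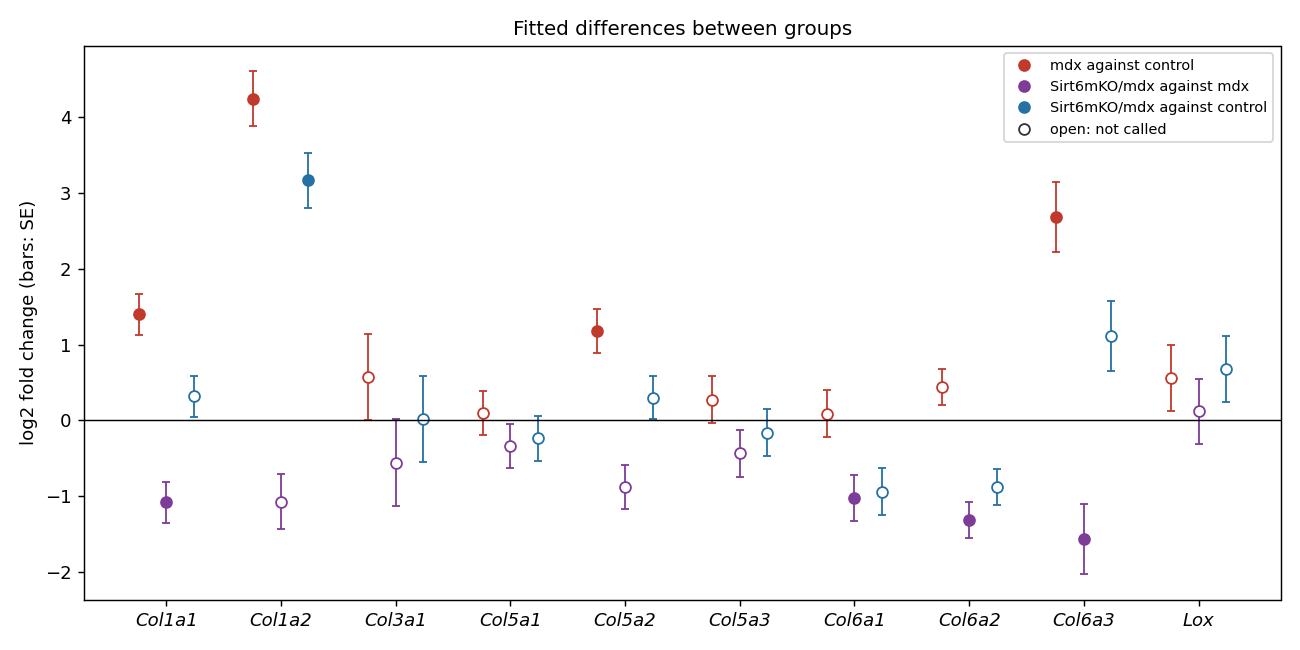
Log2 fold change of each gene in the 3 comparisons, with bars of 1 SE and filled points for called genes. Col1a2 is filled in both comparisons with control, at 4.25 and 3.17, and the purple points of the Sirt6mKO/mdx-labelled libraries against mdx lie below 0 for 9 genes and at 0.12 for Lox.

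Levels of different genes were compared per kb of the principal transcript. Per kb, Col3a1 was first in every group, at 3528 ± 806 in control, 5189 ± 494 in mdx, then 3605 ± 1138 in the Sirt6mKO/mdx-labelled libraries (SD, n = 2). It made up 55.7% and 57.1% of the summed per kb level of the 9 chains in control, 55.6% in mdx replicate 1 and 52.3% and 62.6% in the third group, and its share was lowest in mdx replicate 2. In control it was followed by Col6a1, Col5a3, Col5a1, Col5a2, Col6a2, Col1a1, Col1a2, Lox and Col6a3. Of these 9 neighbouring pairs, Col5a1 with Col5a2 and Lox with Col6a3 overlapped. Col1a2 stood at rank 8 in control with 57.2 ± 29.1 per kb, at rank 2 in mdx with 1028 ± 203 and at rank 3 in the third group with 507 ± 218. In mdx it overlapped its next neighbour Col6a1, and in the third group it overlapped both neighbours, Col5a3 and Col6a1. Its share of the 9 chains was 0.69% and 1.08% in control, 8.88% and 12.1% in mdx, then 6.59% and 9.38% in the third group. Which exons are counted matters for these ranks: per kb of all annotated exons, Col1a2 was at rank 8, 5 and 6 in the same groups, because its annotation holds 12.4 kb of exons against 5.35 kb in the principal transcript.

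Ratios between chains within 1 library do not depend on the scaling between libraries, and their change between groups does not depend on the length used. The ratio of Col1a1 to Col1a2, which stand at 2 to 1 in the usual type I molecule, was 2.92 and 1.87 in control, 0.38 and 0.27 in mdx, then 0.54 and 0.19 in the Sirt6mKO/mdx-labelled libraries. Control lay above 1 and both other groups below it, and the latter overlapped. Per kb of all exons the ratio was 6.12 and 3.92 in control, 0.81 and 0.57 in mdx, then 1.14 and 0.40 in the third group, so the side of 1 on which a library falls depends on the length and the order of the groups does not. Col3a1 exceeded Col1a2 by 80.7 and 52.7 times in control, 6.26 and 4.13 times in mdx, then 7.94 and 6.67 times in the third group. The ratio of Col5a1 to Col5a2 was 1.23 and 1.16 in control, 0.48 and 0.67 in mdx, then 0.90 and 0.75 in the third group, with no overlap. That of Col5a3 to Col5a1 ran only from 1.58 to 2.06 over the 6 libraries, with all groups overlapping. Col6a1 and Col6a2 also kept a narrow ratio, from 2.77 to 4.49. The ratio of Col6a1 to Col6a3, by contrast, was 109 and 55.1 in control, 9.79 and 16.5 in mdx, then 12.2 and 28.2 in the third group. These ratios are descriptions of the chosen genes and were not tested.

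**Figure D3:**
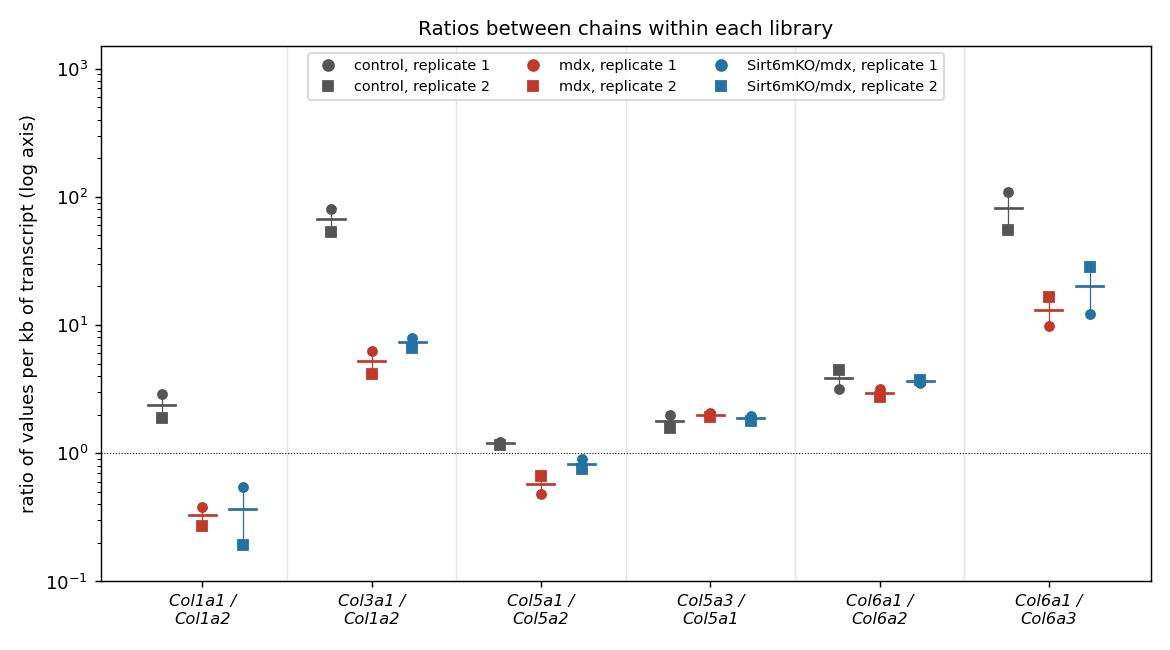
Ratio between the values of paired chains per kb of principal transcript (log axis) in each library, with a bar at the group mean. The ratio of Col1a1 to Col1a2 is 2.92 and 1.87 in control and at most 0.54 elsewhere, while Col5a3 to Col5a1 stays between 1.58 and 2.06 in all 6 libraries.

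The genes differed in how far their profiles ran together over the 6 libraries, which share the scaling. On log2 values, Pearson's r was 0.96 between Col1a1 and Col5a2, 0.95 between Col1a1 and Col6a3 and 0.92 between Col6a1 and Col6a2, but -0.10 between Col6a1 and Col1a2 and between -0.25 and 0.16 for Lox with Col3a1, Col5a1, Col5a3, Col6a1 or Col6a2 (n = 6 libraries, a description). Some of the genes are neighbours. Col6a2 and Col6a1 lie on the minus strand of chromosome 10 with 85161 bases between them and 0 other genes of the table in between. Col3a1 and Col5a2 lie on chromosome 1 on opposite strands, 24614 bases apart, with r of 0.81. Among 9656 other genes with a mean of at least 50, the profile nearest to the mean profile of the 10 genes was that of Ube2d1, which encodes a ubiquitin-conjugating enzyme, with values of 71 and 106 in control, 191 and 174 in mdx, then 116 and 101 in the third group, at a distance of 0.11 on the log2 scale. It was followed by Ktn1, Dnajc8, Fnta and Wwp1, at distances of 0.17 to 0.25.

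Markers of other cells were read beside these values. The collagens of muscle are made largely by fibro-adipogenic cells, which the depletion and sort select against, though the study's reporting summary gives a purity of sorted cells that was not complete. Their defining markers were low but not absent. Pdgfra, a receptor of these cells, stood at 15 and 59 in control, 195 and 18 in mdx, then 142 and 19 in the Sirt6mKO/mdx-labelled libraries. Ly6a, the gene of the Sca1 antigen used for depletion, was at 3 and 9, 79 and 21, and 65 and 15. Replicate 1 thus held more of both markers in the mdx and in the third group. Over the list of 10 fibro-adipogenic markers, replicate 1 was higher than replicate 2 for 10 genes in mdx, 9 in the third group and 4 in control, and the summed level was 11353 and 11103 in control, 11557 and 6210 in mdx, then 8317 and 7501 in the third group, most of it Gsn and Dpt, which were high in every library. In mdx against control 1 of the 10 was called, Ly6a, which was higher, where 6.89% of all genes tested were.

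Of the 10 genes, 3 were higher in replicate 1 of both the mdx and the third group: Col1a1, Col6a3 and Lox. The part of fibro-adipogenic RNA in the values of any of the 10 genes was not tested. Without mdx replicate 1, the log2 fold change of mdx against control was 4.45 (SE 0.46) for Col1a2, 2.30 (SE 0.62) for Col6a3 and 0.19 (SE 0.55) for Lox. The 6 tenocyte markers summed to 74 and 128 in control, 423 and 151 in mdx, then 231 and 143 in the third group, led by Thbs4 with 363 in mdx replicate 1. In mdx against control 1 of these 6, Mkx, was called lower, where 7.34% of all genes tested were. In the third group against control 1 of the 6 was called higher, where 5.19% of all genes tested were: Scx, which encodes scleraxis, a transcription factor of tendon cells, with 6 and 7 in control, 16 and 24 in mdx, then 45 and 52 in the third group. The endothelial list summed to 928 and 829 in control, 459 and 457 in mdx, then 648 and 658 in the third group, with no overlap. In mdx against control 2 of its 6 tested genes, Pecam1 and Kdr, were called lower and 0 higher. Smooth muscle and pericyte markers summed to 4642 and 4987 in control, 6189 and 5731 in mdx, then 5587 and 6774 in the third group. Both groups with the mdx mutation lay above control in this sum, of which Des and Acta2 made up most. Des had 3495 and 2987 in control, 3016 and 3208 in mdx, then 4177 and 4941 in the third group. In mdx against control 3 of the 7 genes had a log2 fold change above 0, with a median of -0.05. Of these 7 genes Acta2, a smooth muscle actin, was called higher in mdx, with 807 and 1604 in control, 2837 and 2334 in mdx, then 924 and 1558 in the third group, and Abcc9 was called lower. The macrophage and leukocyte list summed to 126 and 139 in control, 105 and 85 in mdx, then 199 and 170 in the third group. In mdx 1 of its 5 tested genes, Lyz2, was called higher and 1, Cd68, lower, and Lyz2 was also called higher in the third group against control. The Schwann list summed to 78 to 136 with 0 of 4 tested genes called in any comparison. Erythroid markers summed to 7 to 91, and 1 of 2 tested genes, Hbb-bs, was called higher in the third group against mdx. For these 5 lists, from endothelial to erythroid, 0 other genes were called in the 3 comparisons, and the shares of all genes tested were 6.89% higher and 7.34% lower in mdx against control. The shares called higher were 5.62% in the third group against mdx and 5.19% in the third group against control. The myofibre list summed to 7129 and 8190 in control, 4845 and 1749 in mdx, then 9467 and 4731 in the third group, and 3 of its 8 genes were called lower in mdx, again beside 7.34% of all genes tested. In the third group against mdx all 8 had a log2 fold change above 0, with a median of 1.02, and 2, Acta1 and Myh1, were called higher, where 5.62% of all genes tested were. The 4 of the 10 collagen and Lox genes called in that comparison were lower. The part of these cells in the collagen values was not tested. The 12 MuSC markers summed to 20936 to 29114, with the mdx and Sirt6mKO/mdx-labelled libraries, at 20936 to 26322, below both control libraries. For mdx this order rested on Sdc4, with 7692 and 6224 in control, 1100 and 1049 in mdx, then 2753 and 2822 in the third group. In mdx against control 4 of the 12 had a log2 fold change above 0, and the median was -0.16. There 2 of the 12, Chrdl2 and Sdc4, were called lower, where 7.34% of all genes tested were. In the third group 3 of the 12, Chrdl2, Sdc4 and Heyl, were called lower against control, beside 2.68% of all genes tested, and Sdc4 was called higher against mdx, beside 5.62%.

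The rest of the collagen pathway was counted from 5 lists with 78 genes, of which 69 were tested. In mdx against control 11 were called higher and 7 lower, for the Sirt6mKO/mdx-labelled libraries against mdx 1 higher and 5 lower, and against control 5 higher and 6 lower. Over all genes tested the called shares were 6.89% higher and 7.34% lower in mdx against control, 5.62% and 2.54% for the Sirt6mKO/mdx-labelled libraries against mdx and 5.19% and 2.68% for these against control. These shares also stand behind the counts of each list below. The median log2 fold changes of the 69 genes were 0.09, -0.31 and -0.18. Calls were thus made in both directions. With libraries scaled to equal sums, 23 were called lower and 1 higher against mdx, and 21 lower and 4 higher against control, in the Sirt6mKO/mdx-labelled libraries. The shares of all genes called with equal sums were not counted, and the shares above do not stand for them. Adjusted p-values below are from limma with Benjamini-Hochberg adjustment over all genes tested.

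Among 6 other fibrillar and type VI chains tested, 3 rose and 1 fell in mdx. Col6a6, a chain related to Col6a3, stood at 47 and 47 in control, 384 and 343 in mdx, then 142 and 155 in the Sirt6mKO/mdx-labelled libraries. It rose by a log2 fold change of 2.92 (with SE 0.30, adjusted p = 1.24e-05) in mdx, and was lower in the third group than in mdx by -1.28 (adjusted p = 0.0151), a call that was lost whenever any library of these groups was left out. Col11a2, a type XI chain known from cartilage, had the opposite course, with 267 and 147 in control, 34 and 56 in mdx, then 299 and 316 in the third group. Its log2 fold change was -2.16 (adjusted p = 0.000833) in mdx, then 2.79 (adjusted p = 2.01e-04) in the third group against mdx. Col27a1, a fibrillar chain of cartilage, was at 85 and 52, 136 and 232, and 277 and 303, and was higher in the third group than in control by 2.11 (adjusted p = 0.00143), which was lost without replicate 2 of the third group. Col2a1, the cartilage chain, went from 5 and 11 to 65 and 23 in mdx (adjusted p = 0.0423), a call that held only when control replicate 2 was the library left out.

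Of 17 tested genes for fibril-associated collagens and fibril surface proteins, 3 rose and 3 fell in mdx. Tnxb, which encodes tenascin-X, fell from 3468 and 2419 in control to 356 and 454 in mdx, a log2 fold change of -2.85 (SE 0.26) with an adjusted p = 3.95e-06, and was at 737 and 728 in the third group. Bgn, which encodes the small proteoglycan biglycan, stood at 1292 and 2111 in control, 3255 and 3676 in mdx, then 751 and 1216 in the third group. It was lower in the third group than in mdx by -1.85 (adjusted p = 0.00181), a call lost without replicate 1 of the third group. Ogn, the proteoglycan osteoglycin, was at 921 and 869, 2992 and 1340, and 2295 and 3008, with a log2 fold change of 1.55 (adjusted p = 0.00979) in the third group against control, lost without control replicate 2 or either replicate of the third group. Aspn, which encodes asporin, stood at 9 and 5 in control, 77 and 21 in mdx, then 116 and 28 in the third group, higher in replicate 1 as the fibro-adipogenic markers were, and its 2 calls against control held only when mdx replicate 2 was the library left out. The log2 fold change of Aspn against control was 2.42 in mdx, 1.51 without mdx replicate 1 and 3.33 without mdx replicate 2, and 2.91 in the third group, 1.90 without its replicate 1 and 3.92 without its replicate 2. Fmod, the proteoglycan fibromodulin, went from 82 and 75 to 38 and 16 in mdx (adjusted p = 0.0446), a call lost whichever of the 6 libraries was left out, with log2 fold changes of -1.63 over all libraries, -2.22 without mdx replicate 1 and -1.03 without mdx replicate 2. Col12a1, a fibril-associated chain, stood at 1098 and 932 in control, 419 and 442 in mdx, then 542 and 449 in the third group. Its log2 fold change in the third group against control was -1.03 (adjusted p = 0.0157), lost without control replicate 1 or either replicate of the third group.

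Of 22 genes for collagen synthesis enzymes and chaperones, 3 rose and 2 fell in mdx. P4ha1 and P4ha2, catalytic subunits of prolyl 4-hydroxylase, which makes the helix heat-stable, were the 2 that fell. P4ha1 had values of 1843 and 2414 in control, 546 and 501 in mdx, then 771 and 836 in the third group, with log2 fold changes of -2.01 (SE 0.25, adjusted p = 6.75e-05) in mdx and -1.39 (adjusted p = 0.00255) in the third group against control, the latter lost without either replicate of the third group. P4ha2 went from 520 and 551 to 140 and 138 in mdx, with a log2 fold change of -1.94 (with SE 0.25, adjusted p = 1.06e-04). Creb3l1, a transcription factor of collagen secretion, stood at 33 and 4 in control, 105 and 133 in mdx, then 77 and 106 in the third group. It rose in mdx with a log2 fold change of 3.19 (with SE 0.67, adjusted p = 0.00455), a call lost without either mdx replicate, and the value became 1.81 with control replicate 2 left out and 4.58 with control replicate 1 left out. Fkbp14, a prolyl isomerase of the endoplasmic reticulum, stood at 62 and 78 in control, 224 and 181 in mdx, then 57 and 78 in the third group. Its log2 fold change was 1.52 (adjusted p = 0.00826) in mdx, lost without control or mdx replicate 1, and -1.58 (adjusted p = 0.0119) in the third group against mdx, lost without any one library of these groups. Crtap, a partner of prolyl 3-hydroxylase, was at 122 and 205, 136 and 137, and 73 and 65 (adjusted p = 0.042 for the third group against control, lost under most alternatives).

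Of 11 genes for procollagen processing and cross-linking tested, 2 rose and 1 fell in mdx. Adamts2, the protease that cuts the N-terminal propeptide from fibrillar procollagens, stood at 23 and 34 in control, 127 and 173 in mdx, then 60 and 61 in the third group. It rose by a log2 fold change of 2.36 (with SE 0.41, adjusted p = 0.0012) in mdx and was called under all 14 alternatives. Pcolce, an enhancer of the C-propeptide protease, was at 79 and 137, 240 and 215, and 85 and 82, with log2 fold changes of 1.12 (adjusted p = 0.0336) in mdx and -1.43 (adjusted p = 0.0166) in the third group against mdx. The value of Pcolce in mdx against control became 0.73 with control replicate 1 left out and 1.51 with control replicate 2 left out. Its relative Pcolce2 was at 62 and 91, 29 and 16, and 46 and 41, and fell in mdx by -1.75 (adjusted p = 0.0253). Sparc, a collagen-binding protein, was at 2624 and 7480, 13327 and 7923, and 2992 and 3917, with -1.59 (adjusted p = 0.0404) in the third group against mdx. All 4 of these calls of Pcolce, Pcolce2 and Sparc were lost when mdx replicate 1 or mdx replicate 2 was left out. Loxl1, the paralog of Lox with the highest values, was at 408 and 615, 637 and 732, and 419 and 380, and was called in none of the 3 comparisons. Of 13 genes for collagen receptors and uptake tested, 0 were called in mdx against control and 1, Mrc2, an endocytic collagen receptor, was called lower in the third group against control, at 882 and 652 against 1636 and 1688 (log2 fold change -1.13, adjusted p = 0.0116, lost without control replicate 2 or either replicate of the third group).

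**Figure D4:**
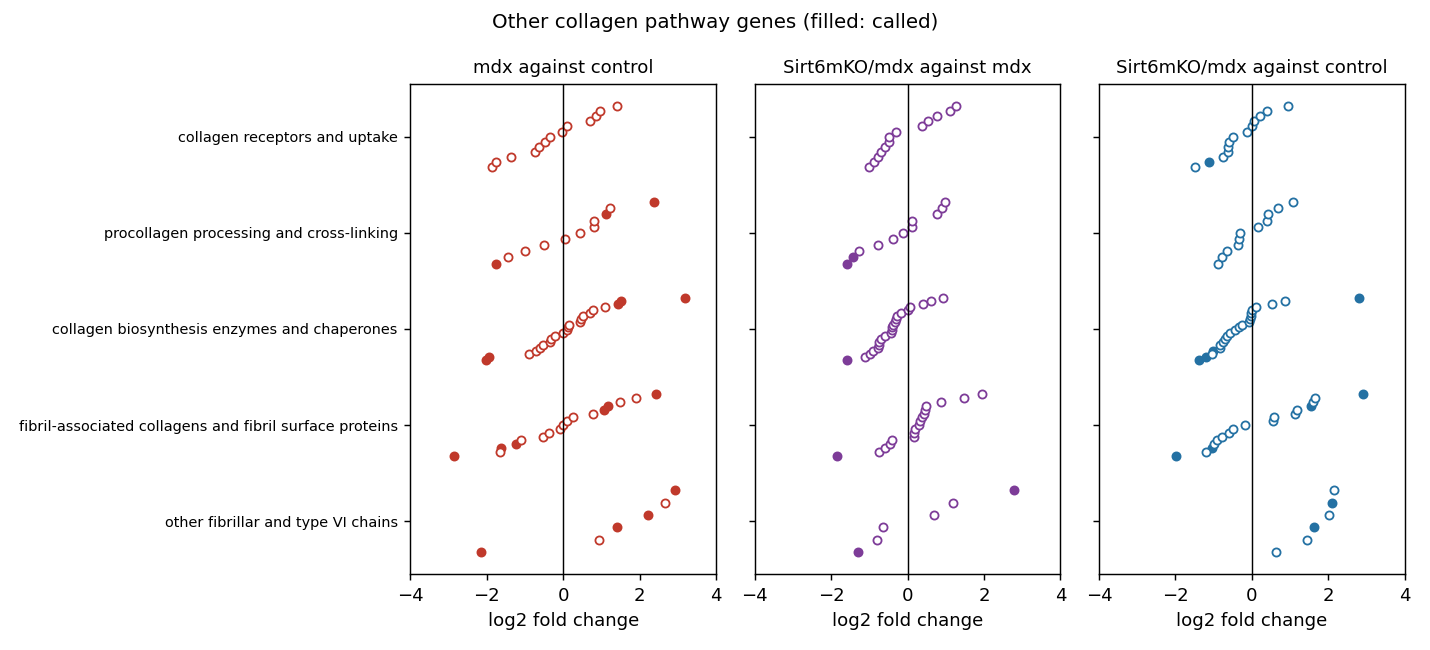
Log2 fold change of the 69 tested pathway genes outside the 10 described, by list and comparison, with filled points for called genes. Filled points lie on both sides of 0 in mdx against control, 11 above and 7 below, and for the Sirt6mKO/mdx-labelled libraries against mdx 1 lies above and 5 below.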

How the data were processed

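RNA-seq values of 6 MuSC libraries were read from 1 table of 22706 genes. By the study's methods and the submitters' processing notes, total RNA was depleted of ribosomal RNA and sequenced on an Ion Proton, and reads were aligned with STAR to GRCm38 and counted per gene with featureCounts 1.4.5-p1, leaving out reads on several genes or places. The processing notes give STAR 2.4.2a, and the study's methods name another version. Whether counting used strand is not given in the sources used here. The values the authors deposited are whole numbers whose skipped and repeated steps show counts divided by 1 size factor per library, as DESeq2 does, and rounded, so the unit is a score, a normalised count and not a raw count. Their relative steps gave size factors from 0.537 to 1.53 and the approximate reads. Intervals from counting error are not given, since the reads are approximate.

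The study's DESeq2 was not used, since it needs raw counts. The values were transformed to log2(value + 1) and fitted with limma 3.58.1 (R 4.3.3), with a trended prior variance, all 6 libraries in 1 fit, and only genes whose mean reached 5. The scale understates changes of low genes. P-values were adjusted by Benjamini-Hochberg, two-sided, over all genes tested. Members, lists and pathway genes were chosen with earlier results of these data known. Pathway genes named were, per list and comparison, those called, with a mean of 20 or more, and the 2 highest and 2 lowest log2 fold changes, and the likeness to the mean profile of the 10 genes was the Euclidean distance between log2 profiles centred on their means, over 6 libraries. Loxl1, Gsn, Dpt, Thbs4, Mkx, Scx, Acta1, Myh1, Heyl, Pecam1, Kdr, Acta2, Des, Abcc9, Lyz2, Cd68, Hbb-bs, Chrdl2, Sdc4, Ly6a, Pdgfra and Fos were named after their values were seen. Levels per kb use the length of the principal transcript in GENCODE mouse release 21 (GRCm38), which held 98.5% of the gene identifiers. Exon sequences come from its transcripts. Alternatives were the pseudocount, the filter, the scaling, voom, the prior variance, a replicate block, a fit of the compared groups only and leaving out each library.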

Additional observations from a re-analysis of the deposited data

How the results depend on the processing

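Of the 30 fold changes of the 10 genes under 14 alternatives, 408 of 420 values kept their sign and 12 did not, and of the 9 called fold changes 0 changed sign. With no filter on low values, and likewise with one prior variance for all genes, the members called fell to 1 higher in mdx against control, 0 lower for the Sirt6mKO/mdx-labelled libraries against mdx and 0 higher in these against control. With no filter, the pathway genes called were 2 higher and 4 lower in mdx, then 0 higher and 0 lower against mdx and 0 higher and 0 lower against control in the third group, and with one prior variance 2 higher and 3 lower in mdx and 0 in each of the others. A pseudocount of 0.1 left 2 members called lower against mdx. Total scaling, to equal sums, gave 7 members lower against mdx, 2 lower against control, and 23 and 21 pathway genes lower in these comparisons. Fitting only the compared groups gave 6 pathway genes higher in mdx and 3 higher in the third group against control. The cause of these differences was not tested. The share of all genes tested that was called was not counted under any alternative, so these counts have no background beside them. Leaving out 1 library at a time gave, for members, 2 to 4 called higher in mdx, 0 to 4 lower in the third group against mdx, and 1 to 2 higher and 0 to 1 lower in the third group against control. For pathway genes it gave 3 to 12 higher and 5 lower in mdx, 1 higher and 0 to 6 lower in the third group against mdx, and 0 to 4 higher and 1 to 5 lower in the third group against control. With the replicate block, 4 members were called higher in mdx, 5 lower in the third group against mdx and 1 higher against control. Deviations from the group means of libraries with the same number correlated at -0.13 (control and mdx), 0.12 (control and Sirt6mKO/mdx) and 0.01 (mdx and Sirt6mKO/mdx), so with 2 pairs the numbers are not taken as pairing. With 2 libraries a group, single libraries decide many calls, and Lox and Col6a3 rest on the fewest reads, 38 to 1330 per library.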
